A study of Homo sapiens with 18 samples.

Results

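The protein channel of the endoplasmic reticulum (ER) membrane and its closest partners were followed as 10 genes, which were chosen by name, with earlier results of these data known. They are SEC61A1, SEC61A2, SEC61B and SEC61G, which encode the subunits of the SEC61 channel, SEC62, SSR1, SSR2, SSR3 and SSR4, which encode the TRAP complex, and TRAM1. They made up 10 of the 25435 rows of the gene count table, and each passed the filter on low counts in every comparison. The smallest count of any member in any library was 164.

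The cells were HEK293doxERN2, a human embryonic kidney line that carries a FLAG-tagged ERN2 transgene under the control of doxycycline. ERN2, also called IRE1β, is an ER stress sensor of mucosal epithelia that can splice XBP1 mRNA. RNA-Seq covered 18 libraries in 6 groups of 3. Doxycycline was absent (No ERN2) or present at 10 ng/mL (Low ERN2) or 100 ng/mL (High ERN2) for 24 hours. At each dose, cells received DMSO (control) or 200 nM thapsigargin (stress), which blocks the ER calcium pump, for 3 hours. All groups carry the transgene, and a doxycycline-treated line without it was not among these samples, so effects of ERN2 and of doxycycline cannot be told apart. The labels do not say whether the line is 1 clone, or whether replicates came from separate cultures. The p-values therefore measure the spread between these samples, which may be technical. In bulk RNA, fewer cells with a transcript and less of it per cell cannot be told apart either.

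Proteins bound for secretion or for a membrane enter the ER through the SEC61 channel while the ribosome makes them, or afterward with the help of SEC62. TRAP sits beside the channel and assists precursors whose signal peptides open it poorly, and TRAM1 contacts nascent chains as they enter the membrane. Secretory cells hold much of this machinery, and several of its genes are known targets of XBP1 and ATF6, transcription factors of the unfolded protein response.

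Library totals ran from 14876416 to 24652240 counts. ERN2 itself was at 6.57 to 9.10 CPM (read counts relative to library size, with TMM factors over all 18 libraries) in No ERN2 control, at 22.5, 27.1 and 55.9 CPM in Low ERN2 control and at 249 to 309 CPM in High ERN2 control. In stress it was at 10.4 to 14.2, 32.1 to 112 and 175 to 272 CPM in the same order. Thapsigargin raised the stress genes HSPA5, XBP1 and DDIT3 in No ERN2 cells, where HSPA5 went from 468 to 536 CPM in the controls to 3046 to 4773 CPM in stress. XBP1 was at 75.4 to 78.0 and 464 to 494 CPM in these groups, and DDIT3 at 9.17 to 11.5 and 153 to 156 CPM. Replicate 2 of No ERN2 stress and of Low ERN2 stress stood apart in HSPA5, at 4773 and 4624 CPM against 2851 to 3102 CPM in the other libraries of those groups. The 3 High ERN2 stress libraries differed most from their own replicates, with an SD over genes of 0.449 to 0.543 on the log2 scale against 0.280 to 0.435 elsewhere. The extraction text of the labels speaks of colon crypts. Of 12 colon epithelial genes the sum was 4.23 to 10.3 CPM, nearly all of it CDX2 (3.36 to 8.83 CPM) with TFF3 at 0, whereas 4 intermediate filament genes known in HEK293 summed to 1513 to 2595 CPM. Most of that sum was VIM (1336 to 2372 CPM), beside NEFL at 66.5 to 123, INA at 70.1 to 163 and NEFM at 16.4 to 31.2 CPM. Summed, these 4 genes ran from 1934 to 2193 CPM in No ERN2 control and from 1513 to 1690 CPM in No ERN2 stress.

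RefSeq (GRCh38.p14) gave 14 promoters for 9 members, each from 250 bases before to 50 bases after a start site, and none was printed for TRAM1. They were searched on both strands for the ER stress elements ERSE (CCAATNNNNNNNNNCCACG) and ERSE-II (ATTGGNCCACG) and for the UPRE core (TGACGTGG), a site that XBP1 can bind. ERSE and ERSE-II were found in 0 of the 14, against 0.0769% and 0.0541% of all 35116 promoters. The UPRE core was in 3 of the 14, those of SEC62, SSR3 and SSR4, against 0.729% of all. The shorter CCACG, which is part of ERSE and ERSE-II and overlaps the UPRE core, was in 12 of the 14 promoters against 38.1% of all, and in at least 1 promoter of 8 of 9 members against 42.1% of all genes. It was searched after the values were seen. The lines below give the promoters of the 4 members that rose with High ERN2 in control cells, followed by the 3 that hold the UPRE core. Capitals mark the UPRE core in SEC62, SSR3 and SSR4 and CCACG or its reverse complement in the others, and the 1 listed promoter of SEC61B has no match. They lie at chr3:128052187-128052486 (plus strand) for SEC61A1, chr9:99222032-99222331 (plus) for SEC61B, chr7:54759162-54759461 (minus) for SEC61G, chr1:156020902-156021201 (minus) for SSR2, chr3:169966557-169966856 (plus) for SEC62, chr3:156554076-156554375 (minus) for SSR3 and chrX:153794418-153794717 (plus) for SSR4. RefSeq lists 2 promoters for SEC61A1 and SSR4 and 3 for SSR3, and the one shown is the most downstream, which holds the marked letters. The other promoter of SEC61A1, at chr3:128051391-128051690, has no CCACG.
SEC61A1: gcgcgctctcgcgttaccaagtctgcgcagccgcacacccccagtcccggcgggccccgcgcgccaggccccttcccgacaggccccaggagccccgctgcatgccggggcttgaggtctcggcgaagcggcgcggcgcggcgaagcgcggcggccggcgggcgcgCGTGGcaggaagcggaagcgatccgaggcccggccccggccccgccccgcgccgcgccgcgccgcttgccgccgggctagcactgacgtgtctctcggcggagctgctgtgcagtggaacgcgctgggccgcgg
SEC61B: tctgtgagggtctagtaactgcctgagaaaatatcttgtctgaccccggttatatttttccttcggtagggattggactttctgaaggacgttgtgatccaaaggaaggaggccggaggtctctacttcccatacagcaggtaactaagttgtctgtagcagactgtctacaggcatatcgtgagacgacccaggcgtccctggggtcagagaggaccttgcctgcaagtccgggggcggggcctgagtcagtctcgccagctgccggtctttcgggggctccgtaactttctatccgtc
SEC61G: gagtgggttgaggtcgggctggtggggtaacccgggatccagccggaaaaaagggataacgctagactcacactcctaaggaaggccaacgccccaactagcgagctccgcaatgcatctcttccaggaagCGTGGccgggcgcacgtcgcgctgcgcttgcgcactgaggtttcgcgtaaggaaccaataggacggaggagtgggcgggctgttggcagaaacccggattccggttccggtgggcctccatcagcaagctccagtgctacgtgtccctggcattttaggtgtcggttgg
SSR2: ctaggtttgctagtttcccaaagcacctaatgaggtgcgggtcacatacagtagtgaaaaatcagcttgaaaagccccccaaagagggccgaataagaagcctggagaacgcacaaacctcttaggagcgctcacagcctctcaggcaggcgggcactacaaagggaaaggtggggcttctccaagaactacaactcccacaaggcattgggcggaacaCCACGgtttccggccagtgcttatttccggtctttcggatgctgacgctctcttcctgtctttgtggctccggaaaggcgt
SEC62: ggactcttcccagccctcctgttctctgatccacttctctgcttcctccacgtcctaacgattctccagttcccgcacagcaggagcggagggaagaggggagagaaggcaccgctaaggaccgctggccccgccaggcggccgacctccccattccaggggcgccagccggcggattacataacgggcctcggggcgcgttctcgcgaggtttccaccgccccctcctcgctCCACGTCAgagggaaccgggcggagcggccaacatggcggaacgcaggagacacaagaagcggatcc
SSR3: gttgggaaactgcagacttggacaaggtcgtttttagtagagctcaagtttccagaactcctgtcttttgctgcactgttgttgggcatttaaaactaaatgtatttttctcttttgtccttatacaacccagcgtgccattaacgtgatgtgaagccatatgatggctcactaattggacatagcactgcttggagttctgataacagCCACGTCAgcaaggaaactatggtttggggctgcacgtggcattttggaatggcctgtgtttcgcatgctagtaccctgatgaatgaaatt
SSR4: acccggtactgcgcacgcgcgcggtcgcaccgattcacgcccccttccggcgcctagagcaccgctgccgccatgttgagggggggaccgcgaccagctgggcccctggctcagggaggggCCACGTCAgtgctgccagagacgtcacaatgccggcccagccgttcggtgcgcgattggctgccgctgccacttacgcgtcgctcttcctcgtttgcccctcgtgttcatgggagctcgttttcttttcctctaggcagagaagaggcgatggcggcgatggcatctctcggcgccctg

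Levels were compared between genes per kilobase of the longest principal GENCODE 29 transcript, as RPKM. In No ERN2 control cells SSR2 stood highest at 132 ± 8.86 RPKM (SD, n = 3), followed by SEC61B at 108 ± 2.58, SEC61A1 at 72.5 ± 4.98 and SSR4 at 54.1 ± 5.48 RPKM. Their ranges did not overlap except for SSR4 and the next gene, TRAM1, at 42.4 ± 12.6 RPKM. The remaining members were close together, with SEC61A2 at 26.2 ± 1.93, SSR3 at 25.8 ± 4.99, SEC61G at 25.1 ± 3.13, SEC62 at 21.3 ± 2.35 and SSR1 at 18.2 ± 3.52 RPKM. Neighbours among these last 5 overlapped between libraries. The order depends on the length used, and over the union of annotated exons SEC61A1 came first and SSR2 came after SEC61B and TRAM1.

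SEC61A1 and SEC61A2 encode alternative forms of the pore-forming subunit, and their translated coding sequences in GENCODE 29 have 476 residues each, of which 445 (93.5%) are identical. Their coding bases are 78.0% identical, with a longest shared run of 20 bases, so 0 of 1354 windows of the read length, 75 bases, were the same. Exons or introns of other genes lie opposite several members, among them RUVBL1 over 6906 bases of SEC61A1, NUDT5 over 4637 bases of SEC61A2 and IDH3G over 1008 bases of SSR4. In a library NUDT5 had 1289 to 2403 counts, against 594 to 1097 for SEC61A2. IDH3G had 1352 to 2762, against 1060 to 3220 for SSR4, and RUVBL1 453 to 2359, against at least 4697 for SEC61A1. The library kit keeps strand, but how strand was handled in the counting is not given in the sources used here, so reads from such opposite genes may not be told apart. CAGE1 lies on the same strand over 20791 bases of SSR1, where strand could not separate them, and had 0 to 16 counts in a library against at least 2543 for SSR1.

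**Figure D1:**
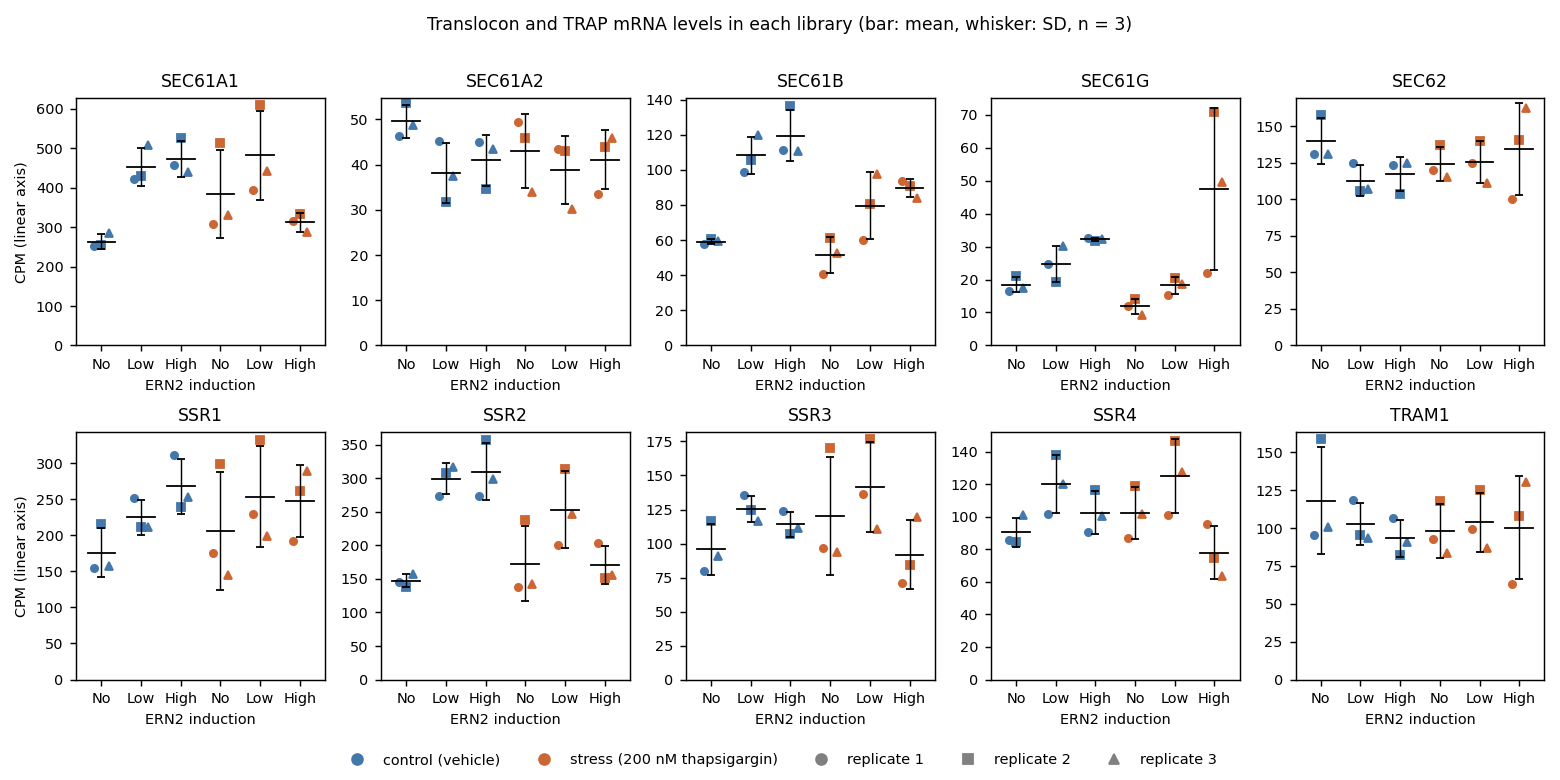
CPM (linear axis from 0) of each of the 10 members in each of the 18 libraries, by ERN2 induction, with controls in blue, stress in orange and a marker shape for each replicate; bars are means and whiskers SD (n = 3). SEC61A1, SEC61B and SSR2 lie higher in every Low and High ERN2 control library than in every No ERN2 control library, and SEC61G is at 22.0, 70.8 and 49.6 CPM in High ERN2 stress.

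The first question was whether induction of ERN2 changed the translocon in cells without thapsigargin. SEC61A1, SEC61B and SSR2 rose at both doses, by 1.72- to 2.04-fold, and SEC61G rose at the higher dose. At Low ERN2, 3 of 10 members passed edgeR's quasi-likelihood test at an adjusted p under 0.01, all higher, where 0.138% of the 14497 genes tested were called higher and 0.0552% lower. At High ERN2, 4 of 10 passed, again all higher, against 0.838% of 14444 genes called higher and 7.49% called lower. The median log2 fold change of the 10 members was 0.40 at Low and 0.39 at High ERN2, beside 0.00241 and -0.00684 over all genes tested. Both comparisons use the same No ERN2 control libraries.

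Of the channel subunits, SEC61A1 was at 251, 255 and 284 CPM in No ERN2 control, at 421, 430 and 509 CPM in Low and at 456, 525 and 439 CPM in High ERN2 control. Every induced library lay above every uninduced one, while the 2 doses overlapped. Here and below, how many of all genes separate without overlap was not counted. Even full separation of 3 against 3 libraries cannot give a two-sided exact permutation p below 0.1. On the log2 scale SEC61A1 rose by 0.78 (standard error 0.108, edgeR adjusted p = 0.00592) at Low and 0.80 (0.109, adjusted p = 0.000213) at High ERN2. SEC61B, which encodes the small beta subunit, was at 57.7, 60.5 and 59.2 CPM without induction, at 99.0, 106 and 120 CPM at Low and at 112, 136 and 111 CPM at High ERN2. It showed the same separation, with log2 fold changes of 0.87 (edgeR standard error 0.112, adjusted p = 0.00527) and 0.97 (0.118, adjusted p = 8.91e-05). SEC61G, the gamma subunit that clamps the pore, was at 16.6, 21.0 and 17.5 CPM, then at 24.7, 19.2 and 30.2 CPM, then at 32.7, 31.6 and 32.3 CPM. The Low ERN2 libraries overlapped the uninduced ones and the High ERN2 libraries did not. Its log2 fold change was 0.43 at Low (edgeR standard error 0.174, adjusted p = 0.127) and 0.77 at High ERN2 (0.130, adjusted p = 0.00135). The call of SEC61G at High ERN2 was lost in a fit with all 6 groups (edgeR adjusted p = 0.0887) and without replicate 1 of No ERN2 control (0.0115).

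SEC61A2 was not called at either dose. It was at 46.4 to 53.6 CPM in No ERN2 control, 31.8 to 45.1 CPM in Low and 34.5 to 44.9 CPM in High ERN2 control, so that every induced library lay below every uninduced one. The log2 fold changes of -0.38 and -0.32 did not pass the test (adjusted p = 0.109 and 0.124 from edgeR). SEC62, the partner in post-translational entry, was likewise at 131 to 158 CPM without induction and at 106 to 125 and 104 to 125 CPM at the 2 doses, with log2 fold changes of -0.31 and -0.30 (adjusted p = 0.109 and 0.113 from edgeR). How many of all genes separate in this way was not counted. An unadjusted p under 0.05 from edgeR was given to 4421 of 14497 genes at Low and 4237 of 14444 at High ERN2.

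Of the 4 TRAP genes only SSR2, the beta subunit, passed this test. SSR2 was at 145, 139 and 158 CPM in No ERN2 control, at 274, 308 and 317 CPM in Low and at 274, 357 and 299 CPM in High ERN2 control, with no overlap with the uninduced libraries. On the log2 scale it rose by 1.02 (edgeR standard error 0.104, adjusted p = 0.00424) and 1.03 (0.121, adjusted p = 6.96e-05). SSR1, the alpha subunit, was at 155 to 215, 211 to 252 and 240 to 311 CPM in the same order. Its log2 fold change was 0.35 (adjusted p = 0.119 from edgeR) at Low and 0.56 (adjusted p = 0.0184) at High ERN2, and DESeq2 called it at High ERN2 (adjusted p = 0.0021), where that tool called 1.79% of all genes higher. SSR3, the gamma subunit, had 0.39 and 0.21, and SSR4, the delta subunit, 0.41 and 0.14 (adjusted p = 0.0986, 0.329, 0.0846 and 0.482 from edgeR). TRAM1 had log2 fold changes of -0.21 and -0.39 (adjusted p = 0.435 and 0.169 from edgeR), and its uninduced libraries spread from 95.2 to 159 CPM.

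**Figure D2:**
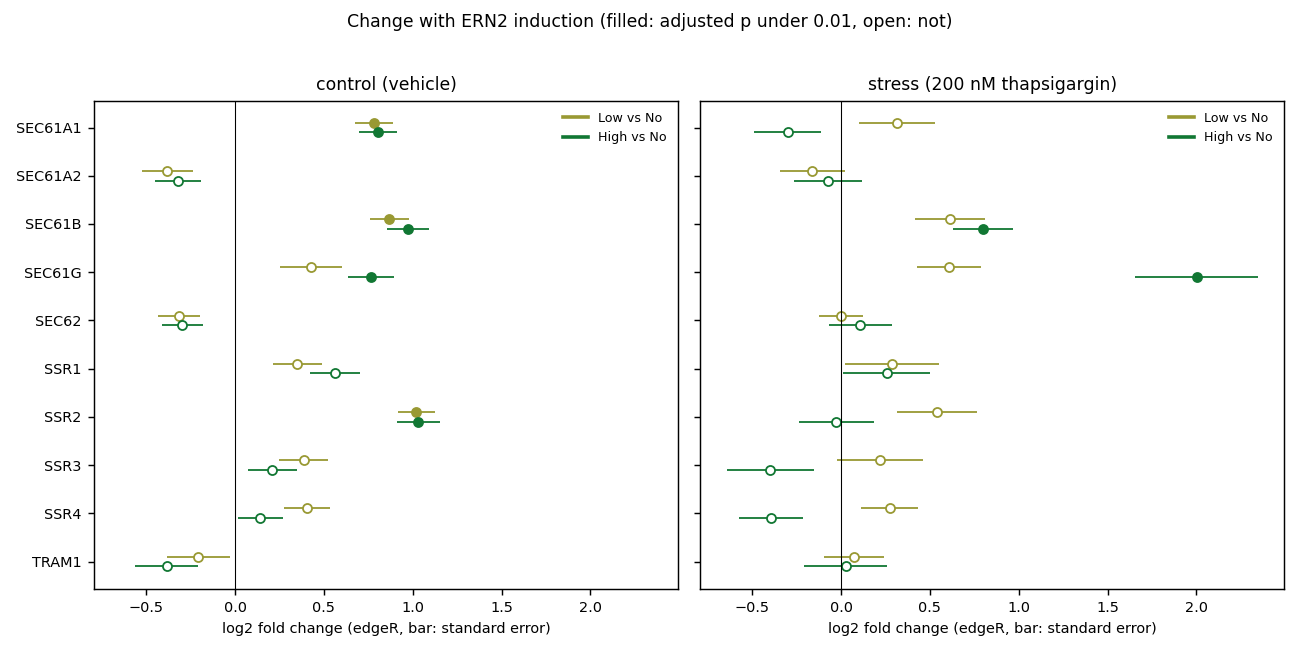
Log2 fold change of each member (edgeR, bars are standard errors) at Low and High ERN2 against No ERN2, in control cells (left) and in thapsigargin-treated cells (right), with filled points for an adjusted p under 0.01. In controls SEC61A1, SEC61B and SSR2 are filled at both doses and SEC61G at High ERN2, and in stress SEC61B and SEC61G are filled at High ERN2.

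The calls at the lower dose moved with single libraries, and the number called over all genes moved with them. Without any 1 of the No ERN2 control libraries, or without replicate 2 of Low ERN2 control, 0 members and 0 genes in all passed, although SEC61A1 kept a log2 fold change of 0.69 to 0.84, SEC61B of 0.79 to 0.92 and SSR2 of 0.98 to 1.08 over the 6 fits. Without replicate 3 of Low ERN2 control SSR2 was the 1 member that passed, among 19 genes in all. Without its replicate 1, 4 members were higher and 1 was lower, where 8.05% of all genes were called higher and 10.7% lower. In a fit with all 6 groups 0 members and 3 of 15023 genes passed at Low ERN2. At High ERN2, SEC61A1, SEC61B and SSR2 passed in 6 of 6 fits that left out a library.

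Counts of short genes differed between control libraries, and not evenly with induction. Against the mean of No ERN2 control, genes under 1000 bases had a median log2 difference of 0.08 and 0.09 in replicate 1 of Low and High ERN2 control. It was 0.33 and 0.33 in replicates 2 and 3 of Low ERN2 control and 0.36 and 0.22 in those of High ERN2 control. Single No ERN2 control libraries lay at 0.02, -0.09 and 0.06. For genes with a transcript under 1000 bases, the median change on the log2 scale was 0.25 at Low and 0.20 at High ERN2 in control cells, and SEC61B (545 bases) and SEC61G (732 bases) are among the genes of that length, with SSR2 at 1116 bases. With the GC and length trend of each library removed, SEC61A1 had log2 fold changes of 0.65 and 0.73, SEC61B of 0.68 and 0.80 and SSR2 of 0.82 and 0.85 at Low and High ERN2, and all 3 passed at both doses. SEC61G then had 0.63 at High ERN2 and passed (adjusted p = 0.00113 from edgeR). In the same fits the longer TRAP transcripts SSR1 (0.70 and 0.79) and SSR3 (0.73 and 0.40) also passed at both doses, and SSR4 (0.09 and -0.04) did not. SEC62 was at 0.11 and -0.02 and SEC61A2 at -0.31 and -0.32, none of them called. This alternative was chosen after the data were seen, and it moved the number of members called from 3 to 5 at Low and from 4 to 6 at High ERN2, all higher, while the share of all genes called higher went from 0.138% to 0.345% and from 0.838% to 3.38%.

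**Figure D3:**
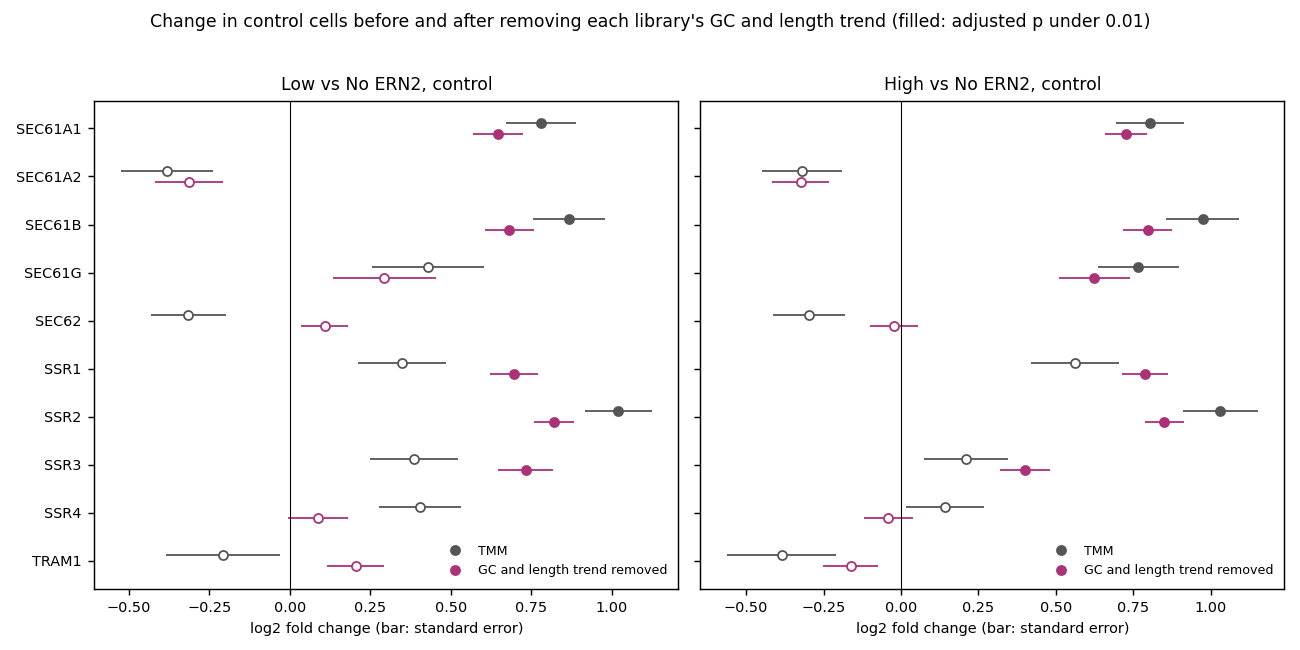
Log2 fold change of each member in control cells at Low (left) and High ERN2 (right) against No ERN2, with TMM scaling (grey) and after the GC and length trend of each library was removed (purple); bars are standard errors and filled points have an adjusted p under 0.01. SSR1 and SSR3 are filled only in purple, and SEC62 moves from -0.31 to 0.11 at Low ERN2.

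Between the doses no member passed. High against Low ERN2 in control cells gave 0 of 10 calls with edgeR, 0 at an unadjusted p under 0.05 and 0 with DESeq2, where 0.0137% of 14549 genes were called higher and 2.43% lower. An unadjusted p under 0.05 from edgeR was reached by 2344 of the 14549 genes. The log2 fold change was 0.04 for SEC61A1 (standard error 0.110), 0.12 for SEC61B (0.119), 0.02 for SSR2 (0.116) and 0.35 for SEC61G (0.162). After removal of the GC and length trend TRAM1 was called lower (log2 fold change -0.36, adjusted p = 0.00629 from edgeR), as were 5.83% of all genes.

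The second question was how the members responded to thapsigargin at each level of ERN2. In No ERN2 cells 0 of 10 members passed with edgeR, 2 had an unadjusted p under 0.05 and DESeq2 called 2, with 6.45% of 14397 genes called higher and 4.74% lower. Over all genes, edgeR gave an unadjusted p under 0.05 to 5173 of 14397, a larger share than 2 of 10. With DESeq2, 8.79% of all genes were called higher and 7.57% lower, so that 2 of 10 members is near the background of that tool. These 2 were SEC61A1 and SEC61G. SEC61A1 was at 307, 512 and 332 CPM in No ERN2 stress, each above every No ERN2 control library, with a log2 fold change of 0.55 (standard error 0.163, adjusted p = 0.0268 from edgeR, 0.0087 from DESeq2). SEC61G was at 12.1, 14.0 and 9.34 CPM, each below every control library, with a log2 fold change of -0.62 (0.168, adjusted p = 0.0176 from edgeR, 0.00471 from DESeq2). Replicate 2, the library with the most HSPA5, was also the highest of its group in SEC61A1 and in SSR1, SSR2 and SSR3, at 298, 237 and 170 CPM. Without it the log2 fold change of SEC61A1 was 0.28 and those of SSR1, SSR2 and SSR3 were -0.13, -0.07 and -0.0041.

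In Low ERN2 cells 0 of 10 passed with edgeR and DESeq2 called 0, against 1.16% of 14607 genes called higher and 0.294% lower by edgeR. At an unadjusted p under 0.05 from edgeR were 2 members, beside 3602 of the 14607 genes. The 2 were SEC61B, at 60.1, 80.7 and 97.9 CPM after thapsigargin, each below every Low ERN2 control library, and SEC61G, at 15.4, 20.6 and 18.6 CPM, which overlapped its controls. Their log2 fold changes were -0.45 and -0.45 (adjusted p = 0.141 and 0.17 from edgeR). Genes under 1000 bases had medians of -0.16, -0.25 and -0.20 for the thapsigargin response at No, Low and High ERN2, and with the GC and length trend removed SEC61B was at 0.05 at No and -0.22 at Low ERN2.

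In High ERN2 cells 0 of 10 passed with edgeR, 3 had an unadjusted p under 0.05 and DESeq2 called 2, against 0.18% of 14427 genes called higher and 0.0208% lower by edgeR and 2.03% and 3.61% by DESeq2. An unadjusted p under 0.05 was given by edgeR to 3892 of the 14427 genes. SEC61A1 was at 316, 334 and 287 CPM, below each High ERN2 control library, with a log2 fold change of -0.58 (standard error 0.125, adjusted p = 0.0393 from edgeR, 0.00282 from DESeq2). SSR2 was at 203, 152 and 156 CPM, also below each control library, with a log2 fold change of -0.84 (0.156, adjusted p = 0.0242 from edgeR, 0.00015 from DESeq2). SEC61B was at 93.9, 90.9 and 84.2 CPM and again did not overlap its controls (-0.39, adjusted p = 0.119). SEC61G was at 22.0, 70.8 and 49.6 CPM around control values of 31.6 to 32.7 CPM. Without replicate 1 of High ERN2 stress, SEC61A1 (-0.60), SSR2 (-1.01) and SEC61G (0.91) passed, in a fit that called 9.78% of all genes higher and 7.84% lower. With the GC and length trend removed, SEC61A1, SSR2 and SSR3 were lower and passed (log2 fold changes of -0.45, -0.72 and -0.63), as did 3.74% of all genes in that direction.

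**Figure D4:**
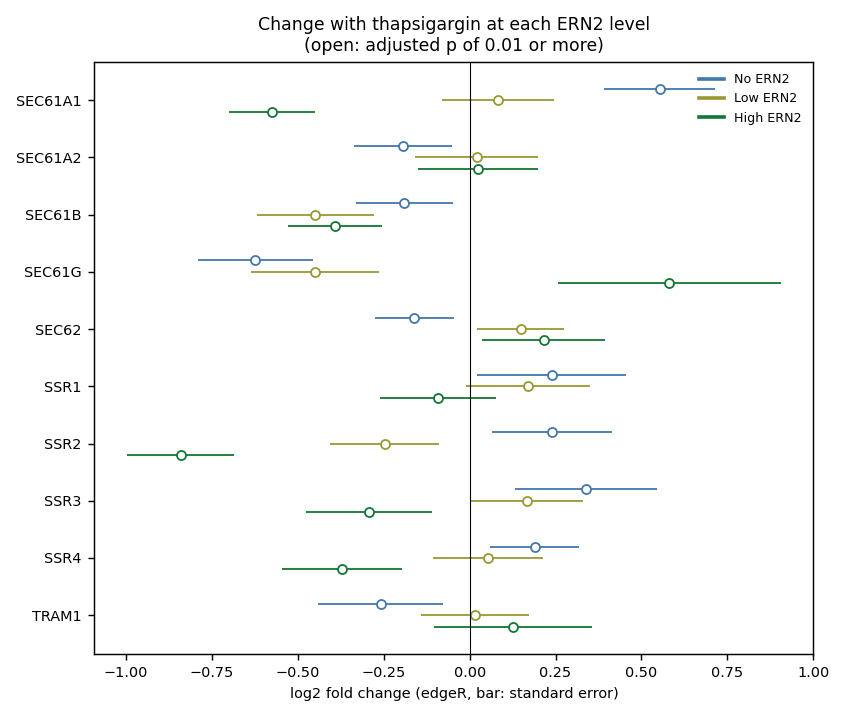
Log2 fold change of each member with thapsigargin (edgeR, bars are standard errors) in No, Low and High ERN2 cells; all points are open because none had an adjusted p under 0.01. SEC61A1 lies at 0.55, 0.08 and -0.58 and SSR2 at 0.24, -0.25 and -0.84 at No, Low and High ERN2.

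The difference between these responses was tested as an interaction in 12 libraries. For High against No ERN2, SEC61A1 had -1.05 (standard error 0.232, adjusted p = 0.0485 from edgeR, 0.00082 from DESeq2), SSR2 -0.999 (0.267, adjusted p = 0.0744 and 0.00819) and SEC61G 1.29 (0.431, adjusted p = 0.104 and 0.0376). None of the 10 passed the threshold of 0.01 with edgeR, 3 had an unadjusted p under 0.05 and DESeq2 called 2, where edgeR called 0.00677% of 14768 genes higher and 0.0339% lower, and DESeq2 1.16% and 1.72%. Over all genes 3651 of 14768 had an unadjusted p under 0.05 with edgeR. Without replicate 1 of High ERN2 stress SEC61A1 (-1.11), SSR2 (-1.195) and SEC61G (1.58) passed, and 5.79% of all genes were called higher and 2.82% lower. For Low against No ERN2, 0 members passed with edgeR, 0 had an unadjusted p under 0.05 and DESeq2 called 0, with 0% of 14857 genes called higher and 0% lower. Of all genes, 664 of 14857 had an unadjusted p under 0.05 with edgeR. SEC61A1 then had -0.46 (0.259) and SSR2 -0.47 (0.267).

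The third question was whether the members differed with ERN2 among thapsigargin-treated cells. High against No ERN2 gave 2 of 10 members, both higher, with 1.53% of 14358 genes called higher and 9% lower. SEC61B was at 40.5, 61.4 and 52.5 CPM in No ERN2 stress and at 93.9, 90.9 and 84.2 CPM in High ERN2 stress (log2 fold change 0.80, standard error 0.171, adjusted p = 0.00548 from edgeR). SEC61G rose from 12.1, 14.0 and 9.34 CPM to 22.0, 70.8 and 49.6 CPM (2.00, 0.344, adjusted p = 0.00131), a 4.00-fold difference whose libraries did not overlap but spread widely at High ERN2. SEC61G passed in 6 of 6 fits that left out a library and SEC61B in 3 of 6, the exceptions being those without replicate 1 or 3 of No ERN2 stress or replicate 2 of High ERN2 stress, where its adjusted p reached 0.0447. With the GC and length trend removed SEC61B was at 0.49 and SEC61G at 1.72, and both passed, with 6.02% of all genes called higher. SEC61A1 (-0.30) and SSR2 (-0.03), which rose with High ERN2 in control cells, were not called here (adjusted p = 0.28 and 0.944 from edgeR). Without replicate 1 of High ERN2 stress SSR4 was also called, as lower (-0.56, adjusted p = 0.00865 from edgeR), among 13.7% of all genes.

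At Low against No ERN2 in stress, 0 of 10 members passed with edgeR, 3 had an unadjusted p under 0.05 and DESeq2 called 0, while 0% of 14509 genes were called higher and 0% lower. An unadjusted p under 0.05 was found for 612 of the 14509 genes with edgeR. Here the replicate numbers paired the libraries by their values, so the fit with the replicate number as a block is given beside this one. The pairing was read from these same libraries, and held in this comparison alone of the 9 between groups. The block was thus chosen by the data it was fitted to, which its p-values do not take into account. In the paired fit 6 members were higher and passed, against 1.36% of genes called higher and 2.53% lower. They were SEC61A1 (log2 fold change 0.32 without the block, adjusted p = 0.978 without and 0.000211 with it), SEC61B (0.61, 0.966 and 5.68e-05), SEC61G (0.61, 0.868 and 0.00193), SSR1 (0.29, 0.978 and 0.00147), SSR2 (0.54, 0.978 and 7.74e-06) and SSR4 (0.28, 0.978 and 0.00586), all from edgeR. Within each replicate number the Low ERN2 library was the higher one for these 6 genes, for example 395 against 307, 609 against 512 and 441 against 332 CPM for SEC61A1. Genes under 1000 bases, SEC61B and SEC61G among them, had a median log2 fold change of 0.17 in this comparison. The GC and length trend was removed only in a fit without the block, where 0 genes passed.

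High against Low ERN2 in stress gave 0 of 10 calls with edgeR, 5 at an unadjusted p under 0.05 and 1 with DESeq2 (SEC61G), where edgeR called 0.235% of 14493 genes higher and 5.32% lower and DESeq2 3.02% and 8.77%. An unadjusted p under 0.05 from edgeR was also common over all genes, at 4581 of 14493. SEC61G had a log2 fold change of 1.39 (standard error 0.324, adjusted p = 0.0142 from edgeR), with each High ERN2 library above each Low ERN2 one. SEC61A1 had -0.62 (adjusted p = 0.0314), SSR4 -0.68 (0.0341), SSR2 -0.57 (0.0571) and SSR3 -0.62 (0.0718). In a fit with all 6 groups SEC61A1, SEC61G and SSR4 passed, with 2.19% of all genes called higher and 11.5% lower. With the GC and length trend removed SEC61G and SSR3 (-0.92) passed, with 2.01% higher and 8.09% lower. Without replicate 1 of High ERN2 stress SEC61G and SSR4 passed, with 9.54% higher and 8.90% lower.

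Ratios between subunits within a library do not depend on its total, and they are given as a description. They do keep the GC and length trend of the library, which was not removed here. The transcripts have 3635 bases for SEC61A1, 1893 for SEC61A2, 545 for SEC61B, 1116 for SSR2 and 1671 for SSR4. SEC61A1 counted 4.76 to 5.82 times as much as SEC61A2 in No ERN2 control libraries, 9.33 to 13.6 times in Low and 10.1 to 15.2 times in High ERN2 control, without overlap between uninduced and induced cells. SEC61A1 to SEC61B was 4.22 to 4.80 in No ERN2 control, 4.06 to 4.26 in Low and 3.85 to 4.09 in High ERN2 control, so these subunits kept closer proportions. After thapsigargin that ratio was 6.33 to 8.34 at No, 4.51 to 7.55 at Low and 3.37 to 3.67 at High ERN2, above all controls at No ERN2 and below all controls at High ERN2. SSR4 to SSR2 was 0.590 to 0.638 in No ERN2 control, 0.373 to 0.448 in Low and 0.326 to 0.337 in High ERN2 control. SEC61G to SEC61B spread most in High ERN2 stress, from 0.235 to 0.779.

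**Figure D5:**
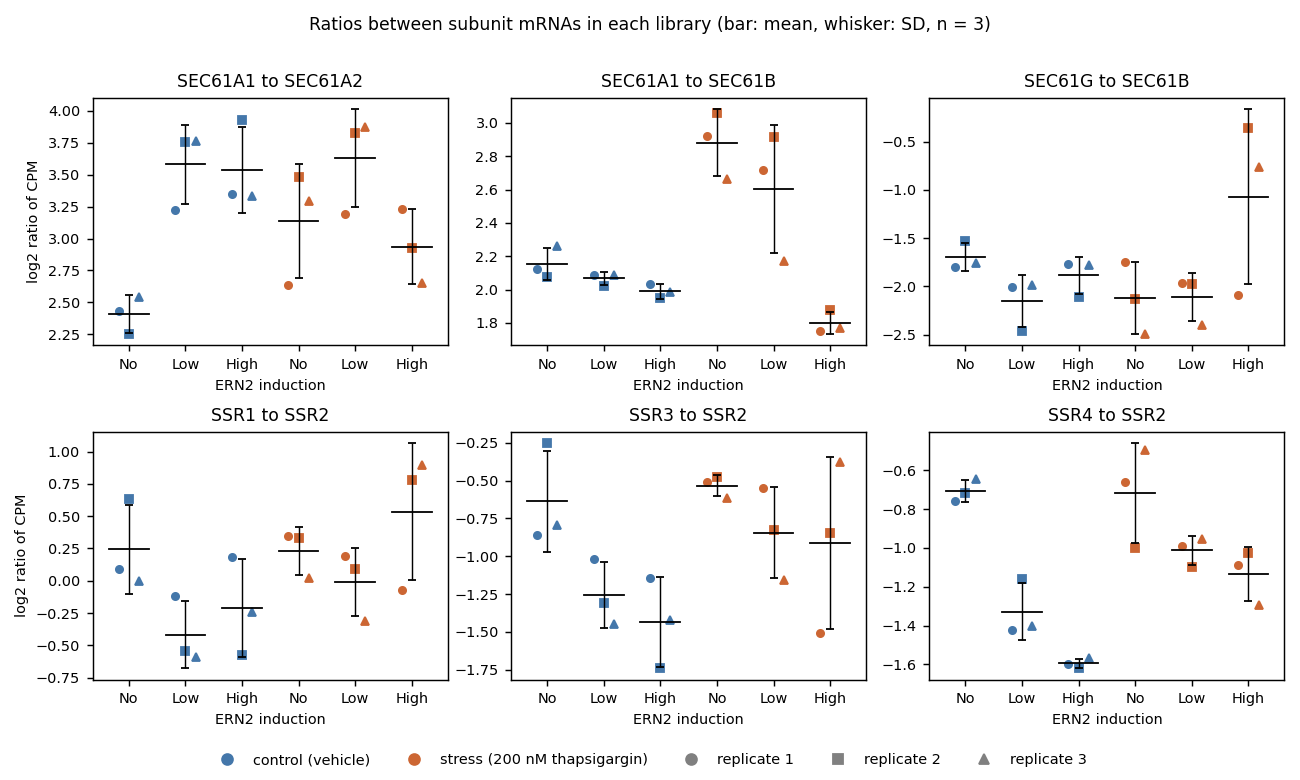
Log2 ratio of CPM between pairs of subunit mRNAs in each library, by ERN2 induction, with controls in blue, stress in orange and a marker shape for each replicate; bars are means and whiskers SD (n = 3), and the axes do not start at 0. SEC61A1 to SEC61A2 is 2.41 ± 0.147 in No ERN2 control and 3.58 ± 0.311 in Low ERN2 control, and SSR4 to SSR2 is -0.71 ± 0.0569 in No ERN2 control and -1.59 ± 0.0249 in High ERN2 control.

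The machinery around the channel was covered by 6 lists, described by how many genes passed and not tested as lists. The first comparison called 0.838% of all genes higher and 7.49% lower. At High against No ERN2 in control cells, the list of translocon partners had 2 of 8 tested genes higher, HSPA5 (log2 fold change 0.84) and SERP1 (0.74), which encodes a small protein that stabilizes membrane proteins at the channel. In the same list 2 were lower, SEC63 (-0.63), the partner of SEC62, and DNAJC1, an ER co-chaperone, at -1.05 (edgeR standard error 0.129, adjusted p = 0.000103). SRP and its receptor, which bring ribosomes to the channel, had 1 of 8 higher, SRP68 at 0.64 (0.105, adjusted p = 0.000942), and signal peptidase had 0 of 5 called. Of the oligosaccharyltransferase, which adds N-glycans beside the channel, 1 of 12 was higher, the small subunit TMEM258 (1.07), and 5 were lower. These were RPN1 at -1.77 (0.110, adjusted p = 3.92e-07), TUSC3 (-1.52), the catalytic subunits STT3B (-0.67) and STT3A (-0.43), and RPN2 (-0.43). The multipass translocon had 2 of 9 lower, NCLN (-0.92) and NOMO1 at -0.93 (0.120, adjusted p = 0.000147), whose reads can be shared with its near-identical copies, and tail-anchor insertion had 0 of 7. The lists' medians were -0.17, 0.20, 0.11, -0.25, -0.38 and 0.15, in this order. At Low ERN2 only 1 gene of the 6 lists passed, TMEM258 at 0.96 (adjusted p = 0.00966). All list values are from fits that kept the GC and length trend of the libraries. Genes under 1000 bases had median log2 fold changes of 0.25 at Low and 0.20 at High ERN2 in control cells. Whether the calls in the lists follow transcript length was not tested.

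With thapsigargin in No ERN2 cells, where 6.45% of all genes were called higher and 4.74% lower, a single call in a list is near the background. Here 2 of 8 translocon partners were higher, HYOU1 (2.10), a nucleotide exchange factor of BiP, and HSPA5, BiP itself, at 2.87 (edgeR standard error 0.168, adjusted p = 2.33e-07). SRP and its receptor had 1 higher, SRP19 at 0.64 (0.145, adjusted p = 0.007), and 1 lower, SRP14 (-0.48), and signal peptidase had none of 5. The oligosaccharyltransferase had 2 of 12 lower, TUSC3 (-0.45) and DAD1 at -0.60 (0.128, adjusted p = 0.00522). The multipass translocon and tail-anchor insertion had 1 lower each, TMCO1 at -0.48 (0.109, adjusted p = 0.0069) and WRB, also named GET1, at -0.69 (0.131, adjusted p = 0.00256). In High against No ERN2 stress, 4 of 8 translocon partners, 5 of 12 oligosaccharyltransferase and 5 of 9 multipass translocon genes were lower, RPN1 again by the most at -2.53 (0.161, adjusted p = 1.39e-06), where 9% of all genes were lower, with list medians of -0.76, -0.65 and -0.87 beside 0.04 over all genes tested. Other genes around the channel were higher, where 1.53% of all genes were. These were SRP9 (1.26) and SRP14 (0.68), 2 of 8 in SRP and its receptor (list median 0.47), and OST4 (0.65) of the oligosaccharyltransferase. Signal peptidase had 0 of 5 and tail-anchor insertion 0 of 7 called. These values also kept the GC and length trend. Genes under 1000 bases had a median log2 fold change of -0.16 with thapsigargin at No ERN2 and 0.18 in High against No ERN2 stress.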

How the data were processed

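RNA-Seq data were made from 18 libraries of HEK293doxERN2 cells with a stranded mRNA kit and single-end reads of 75 bases. The authors deposited raw read counts per gene symbol, made with STAR on hg38. STAR, DESeq2 and hg38 are named in the submitters' processing notes, and the annotation is not given in the sources used here. Every value column was used. The table has 28 rows in which a symbol had become a date and 0 mitochondrial rows. Replicates differed by more than sampling noise (chi-square per degree of freedom 7.33 to 63.8 in 18 pairs), so all libraries counted as separate.

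Counts of the groups compared were filtered with filterByExpr (minimum count 10), scaled by TMM and put through the quasi-likelihood test of edgeR 4.0.16 under R 4.3.3. P-values were adjusted by Benjamini-Hochberg over all genes tested, with a threshold of 0.01. Standard errors were derived from the F statistic, as the absolute log2 change over its root. Alternatives were DESeq2 1.42.0, RLE factors, library totals alone, no filter, all 6 groups, an adjusted p of 0.05, the replicate number as a block and each library left out. Added after seeing the data were both stress replicate 2 libraries left out, and removal of each library's trend on GC content and then length (span 0.3), for which 93.3% of the genes tested at High ERN2 in control had a value. An exact permutation test of 3 against 3 libraries cannot give a two-sided p below 0.1. Precision was limited by the spread of 3 libraries, and the smallest member count was 164.

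Replicate numbers come from the labels. They were taken to pair 2 groups where every same-numbered pair's deviations from the group means correlated above 0.1. This held for Low against No ERN2 in stress (r from 0.344 to 0.468, each library closest to its own number), and in no other comparison.

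The members, the gene lists and the length check were chosen with earlier results of these data known. Named genes were all members, ERN2, XBP1, HSPA5 and DDIT3 as checks, and for each of the 6 lists the gene with the largest log2 fold change among those that passed, at High against No ERN2 in control and with thapsigargin at No ERN2. CDX2, TFF3, the intermediate filament genes, the genes that overlap SEC61A1, SEC61A2, SSR1 and SSR4 and the lists' other called genes were named after their values were seen. Transcripts and coding sequences came from GENCODE 29 and promoters from RefSeq. Figures were drawn with matplotlib 3.10.9.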

Additional observations from a re-analysis of the deposited data

Results flagged for a closer look

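The response of SEC61A1 to thapsigargin was singled out because it ran in opposite directions at the 2 ends of ERN2 induction. All 3 stress libraries lay above all 3 control libraries in No ERN2 cells and all 3 lay below in High ERN2 cells. How many of all genes separate in this way was not counted, and the interaction below rests on the same libraries. The difference between the responses, tested as an interaction, was -1.05 on the log2 scale (adjusted p = 0.0485 from edgeR, 0.00082 to 0.125 over its alternatives), so it did not pass the threshold of 0.01 with edgeR.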

How the results depend on the processing

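The calls of SEC61A1, SEC61B and SSR2 at High ERN2 in control cells held under every alternative run, and the log2 fold changes called in the main tests kept their direction throughout. The numbers of members called in the other settings were as follows. Low against No ERN2 in control, 3 members, gave 0 with all 6 groups, 5 with the GC and length trend removed and 0 to 5 with a library left out. Of all genes these fits called 0.02%, 0.759% and 0% to 18.8%. High against No ERN2 in control, 4 members, gave 3 with all 6 groups and with the replicate block, 5 at an adjusted p of 0.05, with DESeq2 and without the filter, 6 with the trend removed and 3 to 5 with a library left out. Those fits called 7.36% of all genes with all 6 groups, 5.19% with the block, 10.8% with DESeq2 and 8.02% without the filter. With the trend removed 14.9% were called, with a library left out 6.27% to 9.56%, and 2063 of 14444 genes at an adjusted p of 0.05. High against Low ERN2 in control, 0 members, gave 1 with the trend removed, where 5.98% of all genes were called. The response at No ERN2, 0 members, gave 2 at an adjusted p of 0.05, with DESeq2, without the filter and with the replicate block, and 0 to 1 with a library left out. Shares of all genes called there were 16.4% with DESeq2, 11.0% without the filter and 24.8% with the block. With a library left out they were 5.02% to 13.0%. At an adjusted p of 0.05 at least 1611 and at most 3571 of 14397 genes were called. At Low ERN2, 0 members, the response gave 2 with the replicate block, where 24.8% of all genes were called. At High ERN2, 0 members, it gave 2 at an adjusted p of 0.05 and with DESeq2, 1 without the filter and with all 6 groups, 3 with the trend removed and 0 to 3 with a library left out. Shares of all genes at High ERN2 were 5.64% with DESeq2, 1.51% without the filter and 6.26% with all 6 groups. They were 5.75% with the trend removed and 0.0273% to 17.6% with a library left out. At an adjusted p of 0.05 at least 29 and at most 941 of 14427 genes were called. In stress, Low against No ERN2, 0 members, gave 6 with the replicate block (3.89% of all genes), and High against No ERN2, 2 members, gave 1 to 3 with a library left out (5.23% to 27.2%). High against Low ERN2 in stress, 0 members, gave 3 at an adjusted p of 0.05 (2061 genes in all) and with all 6 groups (13.7%). It gave 1 with DESeq2 (11.8%), with library totals (6.18%) and without the filter (8.31%). With the trend removed it gave 2 (10.1%), and with a library left out 0 to 2 (0.285% to 18.4%). The High ERN2 interaction, 0 members, gave 1 at an adjusted p of 0.05 and without the filter, 2 with DESeq2 and 0 to 3 with a library left out. Of all genes 0.416% were called without the filter, 2.88% with DESeq2 and 0.0134% to 8.60% with a library left out. At an adjusted p of 0.05 at least 6 and at most 341 of 14768 genes were called. With library totals alone the median of this interaction over all genes was -0.14 in place of 0.04. Without both stress replicate 2 libraries 0 members and 0 of 14533 genes passed in Low against No ERN2 in stress. That fit had no replicate block, and without the block 0 genes passed with every library kept as well. It therefore cannot bear on the 6 calls of the paired fit, which was not rerun without these libraries. Apart from the paired comparison, libraries shared only a number, and at High ERN2 in control SEC61G had an adjusted p of 0.013 with the replicate block and 0.0887 with all 6 groups. The cause of these shifts was not tested. Of 110 log2 fold changes, 40 changed sign in some setting, and none of these had passed the main test. With the GC and length trend removed the log2 fold change became 0.11 for SEC62 and 0.21 for TRAM1 in Low against No ERN2 in control, -0.041 for SSR4 in High against No ERN2 in control, -0.11 for SEC62 in High against Low ERN2 in control, 0.045 for SEC61B in stress at No ERN2, -0.036 for SEC61A2, -0.035 for SEC62, -0.012 for SSR1, -0.026 for SSR3 and -0.19 for TRAM1 in stress at Low ERN2, -0.065 for SEC61A2, -0.19 for SEC62 and -0.34 for TRAM1 in stress at High ERN2, -0.16 for SEC62 and -0.37 for TRAM1 in High against No ERN2 in stress, -0.0034 for SEC61A2 and -0.26 for SEC62 in High against Low ERN2 in stress, 0.081 for SSR4 and -0.058 for TRAM1 in the Low ERN2 interaction and -0.15 for SEC62 and -0.22 for TRAM1 in the High ERN2 interaction. It became -0.021 for SEC61A2 in stress at High ERN2 and -0.036 for TRAM1 in High against No ERN2 in stress with all 6 groups. It became -0.057 for SEC61A2 in stress at High ERN2, -0.0073 for SEC62 in Low against No ERN2 in stress and -0.055 for TRAM1 in High against No ERN2 in stress with library totals alone. It became 0.013 for SSR1 in High against Low ERN2 in stress without the filter on low counts. It became -0.00098 for SEC62 in Low against No ERN2 in stress, 0.013 for SSR2 in High against No ERN2 in stress and -0.017 for TRAM1 in High against No ERN2 in stress with the replicate block. Over fits that left out libraries the values ran in Low against No ERN2 in control from -0.34 to 0.062 for TRAM1, in High against Low ERN2 in control from -0.033 to 0.12 for SEC61A1, -0.041 to 0.23 for SEC61A2, -0.026 to 0.13 for SEC62 and -0.081 to 0.10 for SSR2, in stress at No ERN2 from -0.13 to 0.44 for SSR1, -0.065 to 0.38 for SSR2, -0.0041 to 0.50 for SSR3 and -0.42 to 0.011 for TRAM1, in stress at Low ERN2 from -0.13 to 0.20 for SEC61A1, -0.10 to 0.17 for SEC61A2, -0.087 to 0.32 for SSR1, -0.037 to 0.31 for SSR3, -0.089 to 0.18 for SSR4 and -0.15 to 0.13 for TRAM1, in stress at High ERN2 from -0.092 to 0.13 for SEC61A2, -0.21 to 0.037 for SSR1 and -0.10 to 0.35 for TRAM1. They also ran in Low against No ERN2 in stress from -0.076 to 0.089 for SEC62 and -0.072 to 0.23 for TRAM1, in High against No ERN2 in stress from -0.24 to 0.069 for SEC61A2, -0.045 to 0.30 for SEC62, -0.16 to 0.29 for SSR2 and -0.20 to 0.29 for TRAM1, in High against Low ERN2 in stress from -0.058 to 0.24 for SEC61A2, -0.050 to 0.31 for SEC62, -0.17 to 0.24 for SSR1 and -0.27 to 0.23 for TRAM1, in the Low ERN2 interaction from -0.31 to 0.31 for SSR1, -0.36 to 0.18 for SSR3 and -0.26 to 0.0068 for SSR4, in the High ERN2 interaction from -0.47 to 0.072 for SSR1.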
